A study of Xenopus laevis with 3 samples.

Results

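The genes of vesicle trafficking in the frog Xenopus laevis were examined for variants that change the protein, as recorded in RNA sequencing data from entire tadpoles of NF stage 42. The members are the coat, adaptor, tether and sorting genes and the Rab and Arf regulators whose names begin rab, tbc1d, arf, arfgef, arfgap, cop, sec, vps, snx, exoc, trappc, ap1 to ap5, stx, dopey or mia3 in the deposited table of homeolog pairs, with vps33a set aside. The frog is allotetraploid, and each pair holds a copy on the long (L) and a copy on the short (S) subgenome, written here as copa.L and copa.S. The rule found 130 of 8660 pairs, or 260 gene copies, of which 68 appear among the 11603 genes that the authors listed with at least 1 missense (amino acid changing) site. There were 3 libraries without replicates: offspring of an inbred albino mating, of an inbred pigmented (J strain) mating, and of matings between those populations, with tadpoles pooled 10 to a cross and raised in dilute saline with gentamycin, an antibiotic. The letter codes given for the inbred libraries contradict each other between labels and were not used. Stated depths ran from 30 to 47 M paired-end reads of 100 bases per library. No column of the deposited tables names a library, so every value below is a count of variant sites over the whole series, and the matings could not be compared.

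Eukaryotic cells move membrane proteins and secreted proteins between compartments in vesicles. Coat complexes bend the membrane and choose cargo: COPII at exit sites of the endoplasmic reticulum (ER), COPI on the Golgi for the return path, and clathrin with its adaptor proteins (AP) at the Golgi, endosomes and cell surface. Small GTPases of the Arf and Rab families mark each compartment and are switched on by exchange factors and off by GTPase-activating proteins (GAPs). Tethers such as TRAPP and the exocyst then catch the vesicle, SNARE proteins such as the syntaxins fuse it, and sorting nexins, Vps proteins and retromer sort cargo at endosomes.

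Of the 260 copies, 68 (26.2%) were listed with a missense site, against 32.7% of all copies in the pair table. The Rab and Arf GTPases were listed in 9 of 66 copies (13.6%). All other trafficking copies were listed in 59 of 194 (30.4%), nearer to the share of the pair table. Neither copy was listed in 78 of the 130 pairs (60%), against 49.8% of all other pairs and 49.6% of other pairs with a symbol. A symbol here is a name that does not begin with xetrov or with loc or mgc and a digit. No copy was listed of the 4 ER translocon and signal peptidase pairs (sec61a1, sec61g, sec11a and sec11c), of the 3 exocyst pairs (exoc1, exoc5 and exoc6), of the lipid transfer gene sec14l3 or of the ER trafficking gene sec22c-like. All 8 copies of the Arf GTPases arf1, arf3, arf4 and arf5 were also missing from the list, as were 49 of 58 copies of the Rab GTPases. Among the AP adaptors, 0 of 12 copies of medium and small chains and 4 of 12 copies of large chains were listed. Other families lay above the 32.7% of the pair table. These were Dopey (2 of 2 copies), COPI (6 of 10, 60%) and the COPII and ER export genes (10 of 20, 50%). The TBC domain Rab GAPs (10 of 26, 38.5%) and TRAPP (5 of 14, 35.7%) were also above it. A copy is missing when no missense site was recorded in it. Whether it was expressed or covered by reads at this stage was not analysed here, nor was the length of its coding sequence. A conserved, a short and an undetected copy therefore cannot be told apart.

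The listed copies held 185 missense and 367 synonymous (silent) sites. Missense sites were therefore 33.5% of their coding sites (95% Wilson interval 29.7 to 37.6), against 38.7% (38.1 to 39.3) in the other listed genes with a symbol and 42.9% (42.6 to 43.3) in all other listed genes. These intervals treat sites as independent and cover counting error only. Genes with a symbol were taken from the pair table alone, which holds 5667 of the 11603 listed genes. Genes outside it are not among them, whatever their name. In copies with at least 5 sites the median fraction was 23.5% over 39 trafficking copies and 33.3% over 4966 other genes. It was 30% over 1973 other genes with a symbol and 28.6% over 23 other genes of the pathway, which are described at the end. The median listed copy held 1 missense and 3 synonymous sites among the trafficking genes, and 1 and 2 among all other listed genes. The fraction depends on the number of sites, because a gene enters the list through its missense sites and a gene with a single site stands at 100%. Within the same range of sites, the trafficking copies held 28.8% missense at 5 to 9 sites (20 copies), 27.6% at 10 to 19 (12 copies) and 32.8% at 20 or more (7 copies). All other genes held 38.6%, 35.1% and 41.8% in these ranges, and other genes with a symbol 34.8%, 30.8% and 37.1%. At 2 to 4 sites the values were 52.1% in 17 trafficking copies, 53.6% in all other genes and 50.2% in other genes with a symbol, so the trafficking copies lay between both comparison sets there.

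**Figure D1:**
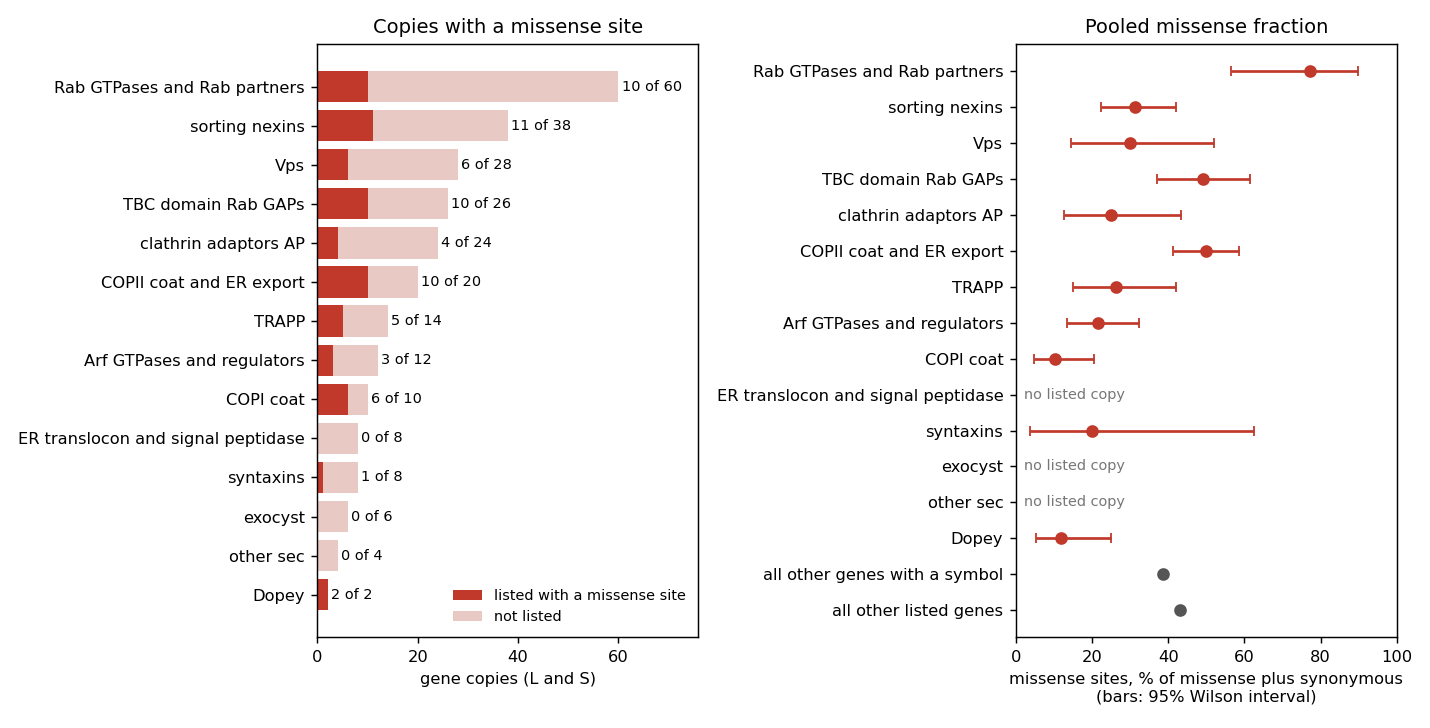
Left, gene copies of each trafficking family that were listed with a missense site (dark) or not listed (pale). Right, missense sites as a percentage of missense plus synonymous sites pooled over the listed copies of a family, with 95% Wilson intervals, above the same for all other genes with a symbol and all other listed genes. The COPI coat (10.2%) and Dopey (11.9%) lie lowest and the Rab family (77.3%, from 22 sites) highest. The row of clathrin adaptors holds all AP genes, ap4e1 among them.

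The families differed widely. COPI subunits held 10.2% missense (6 of 59 sites, 4.74 to 20.5), Dopey 11.9% (5 of 42) and Arf regulators 21.4% (15 of 70). AP adaptors held 25% (7 of 28), TRAPP 26.3% (10 of 38), Vps proteins 30% (6 of 20) and sorting nexins 31.3% (26 of 83). Of the AP adaptor sites, ap4e1.S held 4 of the 7 missense and 7 of the 21 synonymous. COPII and ER export genes held 50% (62 of 124, 41.3 to 58.7), and the TBC domain Rab GAPs 49.2% (30 of 61). In the COPII family mia3-like.1.L held 22 of the 62 missense and 19 of the 62 synonymous sites. Its own fraction of 53.7% was thus close to that of the family. In the TBC family tbc1d10b.S held 16 of the 30 missense and 8 of the 31 synonymous sites (66.7%). The Rab family stood at 77.3% (17 of 22), with 0 synonymous sites and so a fraction of 100% in 8 of its 10 listed copies. The way genes were listed forces this value in copies with a single site, but not in rab24.S (4 missense sites) or rab44.L (3). No test was made between families.

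The COPI coat, which carries proteins from the Golgi back to the ER, was listed in 6 of its 10 copies, each with exactly 1 missense site. That is the lowest number a listed copy can hold. It was found in 58.8% of listed trafficking copies and 50.7% of all listed genes. The alpha subunit copa.L (Xelaev18040643m) held 1 missense and 23 synonymous sites (4.17%, Wilson interval 0.739 to 20.2), and copa.S held 1 and 6. The gamma subunit copg1.S held 1 and 17 (5.56%), the beta-prime subunit 1 and 6 in copb2.L and 1 and 1 in copb2.S, and the epsilon subunit cope.L 1 and 0. The zeta subunit gene copz1 had no listed copy. The authors' predictions come from PolyPhen-2, a program built on human variants that classes a change as benign, possibly damaging or probably damaging from conservation among aligned homologues and, where known, protein structure. The number of aligned residues at a position shows how much evidence a prediction had. All 6 COPI changes were predicted benign. They were I1200V in copa.L, L1223F in copa.S, A819V in copb2.L, S601N in copb2.S, A170T in cope.L and M808L in copg1.S, where the reference residue comes first and positions count from the start of the authors' protein models. Both copa changes lie near each other in number, at positions 1200 and 1223, and in both the variant residue is carried by an aligned homologue. The change nearest to the damaging class was A170T in cope.L, with a predicted probability of damage of 0.404.

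The Golgi gene dopey2.L (Xelaev18011457m), whose yeast relative acts in Golgi and endosome traffic with a protein related to Arf exchange factors, held 2 missense and 26 synonymous sites (7.14%, 1.98 to 22.6). Its S copy held 3 and 11 (21.4%), among them K1636R, which was possibly damaging (0.786, on 67 aligned residues). The trans-Golgi Arf exchange factor arfgef2-like.L (Xelaev18043404m) held 2 and 24 (7.69%, 2.14 to 24.1). Its S copy held 9 and 22 (29%), of which G1088R was probably damaging (0.960, on 189 aligned residues) and T252R possibly damaging (0.476). The L copy also held a possibly damaging change, D324Y (0.515). The Arf GAP arfgap1.S held 4 missense and 9 synonymous sites, all 4 benign. The Arf regulators carried 15 missense and 55 synonymous sites in 3 of 4 copies, and the Arf GTPases that they switch no missense site in 8 copies. These counts were not adjusted for protein length.

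The COPII and ER export genes held 62 missense sites in 10 listed copies. The gene mia3-like.1 is related to mammalian MIA3 (TANGO1), a receptor at ER exit sites that loads collagen. Its L copy (Xelaev18026253m) held 22 missense and 19 synonymous sites (53.7%), the largest number of missense sites of any trafficking copy, and its S copy (Xelaev18028661m) 15 and 15 (50%). In the L copy 18 of 22 missense sites had no prediction, each with 0 aligned residues, and 17 of those lay between positions 279 and 1317. The remaining 4 lay between positions 1875 and 1972 on 20 aligned residues each, with K1972R probably damaging (0.955) and A1895S possibly damaging (0.553). In the S copy the 4 sites up to position 516 had no prediction and 7 of 11 predicted sites were damaging. K1696I (0.996), K1590I (0.992), Q1564H (0.969) and V1473E (0.708) rested on 65 to 71 aligned residues. P2138H (0.952), L2268M (0.826) and P2053H (0.661), farther along the protein, rested on 1 or 2.

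Among the Sec24 subunits, which bind cargo inside the COPII coat, 4 of 8 copies were listed, with 14 missense and 12 synonymous sites. The copy sec24d-like.2.S held 7 and 6, and 3 of its 6 predicted sites were probably damaging. S575P had a probability of 1 on 140 aligned residues, the highest of any trafficking site. It lies at a residue that is largely buried in a mapped structure, with a relative accessible surface of 0.072. M804I (0.980, on 147 aligned residues, relative accessible surface 0.306) and G71D (0.970, on 3 aligned residues) completed the class. The copy sec24b.S held 5 missense and 0 synonymous sites, of which Q640E (0.628) and T1031M (0.453) were possibly damaging. The Sec23 subunit sec23b, a GAP for the COPII GTPase Sar1, held 1 missense site in L and 2 in S, all benign. The Sec23-binding protein gene sec23ip.L held 6 missense sites, 4 of them without a prediction between positions 39 and 136. The ER exit site scaffold sec16a-like.L held G1004V (0.980, on 3 aligned residues). Of the cage subunit sec13 and of sec23a no copy was listed.

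Rab GTPases, the compartment markers, were listed in 9 of 58 copies with 14 missense sites and 1 synonymous site. The atypical Rab rab24.S, linked to autophagy in mammals, held 4 missense and 0 synonymous sites, all benign: G56S, Q159L, T178M and S180G, the last 2 within 3 residues. The large atypical Rab44 gene held 3 missense sites in rab44.L and 1 in rab44.S, where A288T was the single damaging site among 11 predicted Rab GTPase sites (0.478). Single benign changes were seen in rab12.S, rab18.L, rab25.L, rab3d.L and rab4b.S, and rab12.L had 1 without a prediction. In rab18.L, a lipid droplet and ER Rab, T97M lies in a helix of a mapped structure and had a probability of damage of 0.012. The other 22 Rab pairs, rab1a, rab5b, rab6a, rab7a and rab11a among them, had no listed copy. The gene rab3gap1.S, which encodes a subunit of a regulator of Rab3 and Rab18 in mammals, held 3 missense and 4 synonymous sites, all 3 benign.

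TBC domain proteins, the GAPs that switch Rabs off, were listed in 10 of 26 copies with 30 missense and 31 synonymous sites. The copy tbc1d10b.S (Xelaev18047857m), whose mammalian counterpart acts on several Rabs, held 16 missense and 8 synonymous sites (66.7%, 46.7 to 82.0). Its L copy held 3 and 3. The L copy had 1 predicted site and 0 damaging, and the S copy 14 predicted and 6 damaging: G376V (0.980), P534L (0.960), T450M (0.895), P275T (0.810), A371V (0.691) and S544I (0.617). All 6 rested on 1 or 2 aligned residues. Outside this gene, tbc1d13.S (P5S, 0.736) and tbc1d9.L (S1044P, 0.532) each held 1 damaging site, and tbc1d30.S held 1 missense and 8 synonymous sites.

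Sorting nexins, which bind endosomal phosphoinositides, were listed in 11 of 38 copies. The retromer partner snx1.L held 7 missense and 8 synonymous sites, with 2 different changes at position 373: T373P was possibly damaging (0.487) and T373K benign (0.064), both on 230 aligned residues. A393V in the same copy was possibly damaging (0.739). The related snx2-like held 1 missense site in each copy, against 4 synonymous sites in L and 9 in S, both benign. The copy snx13.L, a nexin with a domain of the G protein regulator type, held 4 and 13, with R574Q (0.898) and P131Q (0.560) possibly damaging. In snx31, a relative of snx17 that binds membrane receptors in mammals, the L copy held 3 missense sites and the S copy 4. All 3 in L were damaging, on 4 aligned residues each: G169C (0.985), G304S (0.934) and A125V (0.691). In S, G169S was probably damaging (0.979) and S136R possibly damaging (0.798), on 41 aligned residues. Both copies thus carried a change of glycine at position 169 of their models. Such a match of position and reference residue was found in 1 of 16 trafficking pairs with both copies listed and in 5 of 1313 other pairs. The larger set was counted after this pair had been seen. Positions were matched by number without aligning the L and S models, so a match shifted by an insertion or deletion would be missed.

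Adaptors, tethers, Vps proteins and syntaxins held few changes. The clathrin adaptor subunit ap2a1.S, which acts in endocytosis, held 1 missense and 11 synonymous sites, and ap1g2.S 1 and 3. The AP-4 subunit ap4e1.S held 4 and 7, with Q268H (0.985) and R501H (0.959) probably damaging on 56 and 53 aligned residues, and ap4e1.L 1 and 0. The TRAPP subunit trappc10.L held 5 and 14, and 0 of the 10 missense sites in the 5 listed TRAPP copies was damaging. All 6 listed Vps copies held a single missense site, as did 40 of the 68 listed trafficking copies. In the ATPase gene vps4a-like.L, which disassembles ESCRT filaments, it was P291A, probably damaging (0.969, on 44 aligned residues). In vps41.L, a subunit of the HOPS tether, it was S431F, possibly damaging (0.690, on 84). The changes in the retromer subunit vps35.L (1 and 5) and the ESCRT-I subunit vps37a.S (1 and 1) were benign, and that in the related vps37d.S (1 and 0) had no prediction and 0 aligned residues. The Vps name also covers vps72.L (1 and 1), which encodes a chromatin factor in other species. The syntaxin stx19.S held 1 and 4, and stx5, stx6 and stx11 had no listed copy.

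**Figure D2:**
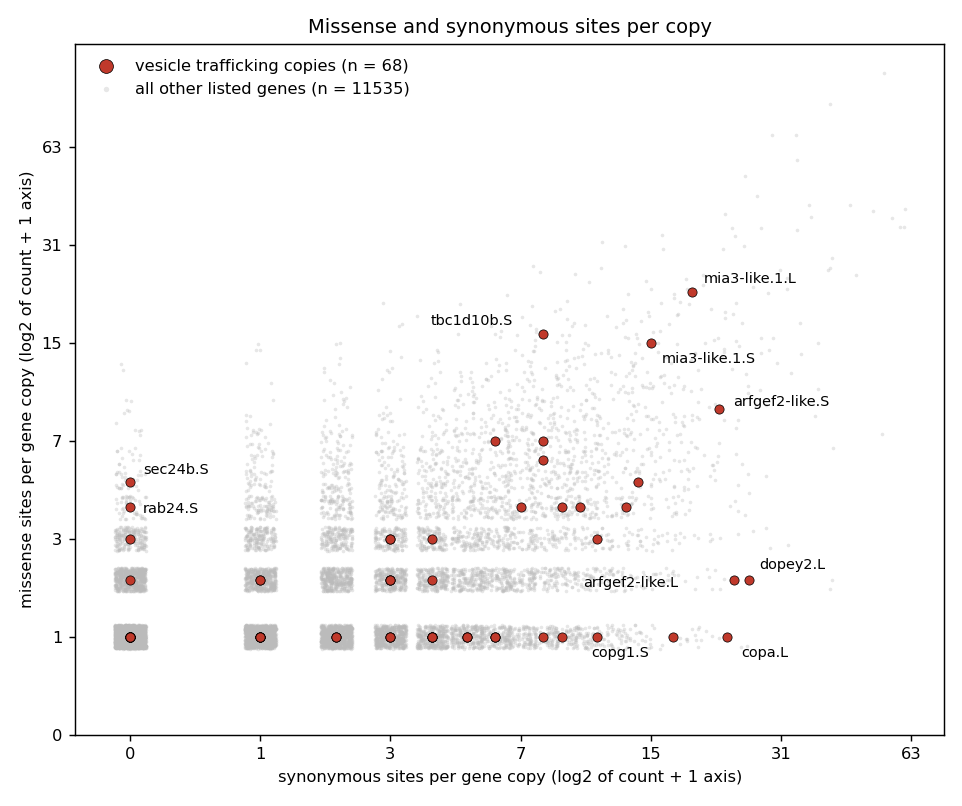
Missense against synonymous sites per gene copy, both as log2 of the count plus 1 with the counts marked on the axes, for the 68 listed trafficking copies (red) and the 11535 other listed genes (grey, shifted slightly at random so that points do not hide each other). The copies copa.L, dopey2.L, arfgef2-like.L and copg1.S lie low and to the right, with 1 or 2 missense sites beside 17 to 26 synonymous sites.

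Single copies were tested for a lower or higher missense fraction than other genes. Missense and synonymous sites of each copy were compared with the totals of the remaining listed genes (Fisher's exact test, two-sided). Benjamini-Hochberg adjustment was made over all 5005 genes with at least 5 sites. Of the 68 listed trafficking copies 39 had enough sites. Lower fractions passed in 3 of them, copa.L (Fisher's exact adjusted p = 0.0107), dopey2.L (0.0152) and arfgef2-like.L (0.0283), where 42.9% of the sites in all other genes were missense. This reference includes genes with under 5 sites, whose fraction is raised by the way genes were listed. In other genes with at least 5 sites 38.0% of the sites were missense, and the copies were not tested against that lower value. Over all genes tested, 1.32% passed, 0.699% as lower and 0.619% as higher, and no trafficking copy passed as higher. All 3 calls were lost when only genes with a symbol were tested and compared, with Fisher's exact adjusted p = 0.0546, 0.0557 and 0.0981 in the same order. An unadjusted p under 0.05 was found for 5 trafficking copies with lower and 2 with higher fractions, against 6.25% and 4.6% of all genes tested.

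The copies with the next smallest p did not pass. On the lower side these were copg1.S (Fisher's exact adjusted p = 0.0755), ap2a1.S (0.270), snx2-like.S (0.407), tbc1d30.S (0.525) and snx13.L (0.637). On the higher side they were sec24b.S (Fisher's exact adjusted p = 0.259), tbc1d10b.S (0.329), mia3-like.1.L (0.676), mia3-like.1.S (0.816), sec24d-like.2.S (0.921) and snx1.L (0.993), with an adjusted p of 1 for snx31.L and tbc1d10b.L. The copy copg1.S passed when genes needed at least 10 sites (adjusted p = 0.0328).

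Of 147 predicted sites, 106 were benign, 23 possibly damaging and 18 probably damaging. The 41 damaging sites made up 27.9% (21.3 to 35.6), against 21.3% (20.5 to 22.2) in other genes with a symbol and 19.9% (19.4 to 20.4) in all other listed genes. The damaging classes begin at a predicted probability of 0.447 (possibly) and 0.909 (probably). The 41 sites lay in 19 of the 68 listed copies (27.9%), close to the 29.9% of all listed genes that held at least 1. The copies mia3-like.1.S and tbc1d10b.S alone held 13 of the 41, and without them the share was 23.0%. By family, damaging sites were 15 of 35 predicted in COPII and ER export genes, 9 of 26 in sorting nexins and 8 of 25 in TBC proteins. Of the 15 in COPII and ER export genes, mia3-like.1.S held 7, of which 3 rested on 1 or 2 aligned residues, and mia3-like.1.L held 2. In the same family, G71D in sec24d-like.2.S and G1004V in sec16a-like.L rested on 3 aligned residues. Of the 9 in sorting nexins, 3 lay in snx31.L on 4 aligned residues. Of the 8 in TBC proteins, 6 lay in tbc1d10b.S on 1 or 2 aligned residues. The AP adaptors held 2 of 6, which lay in the AP-4 subunit ap4e1.S. The Arf regulators held 3 of 15, Vps proteins 2 of 5, Dopey 1 of 4 and the Rab family 1 of 14. None was damaging in TRAPP (0 of 10), COPI (0 of 6) or the syntaxins (0 of 1).

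**Figure D3:**
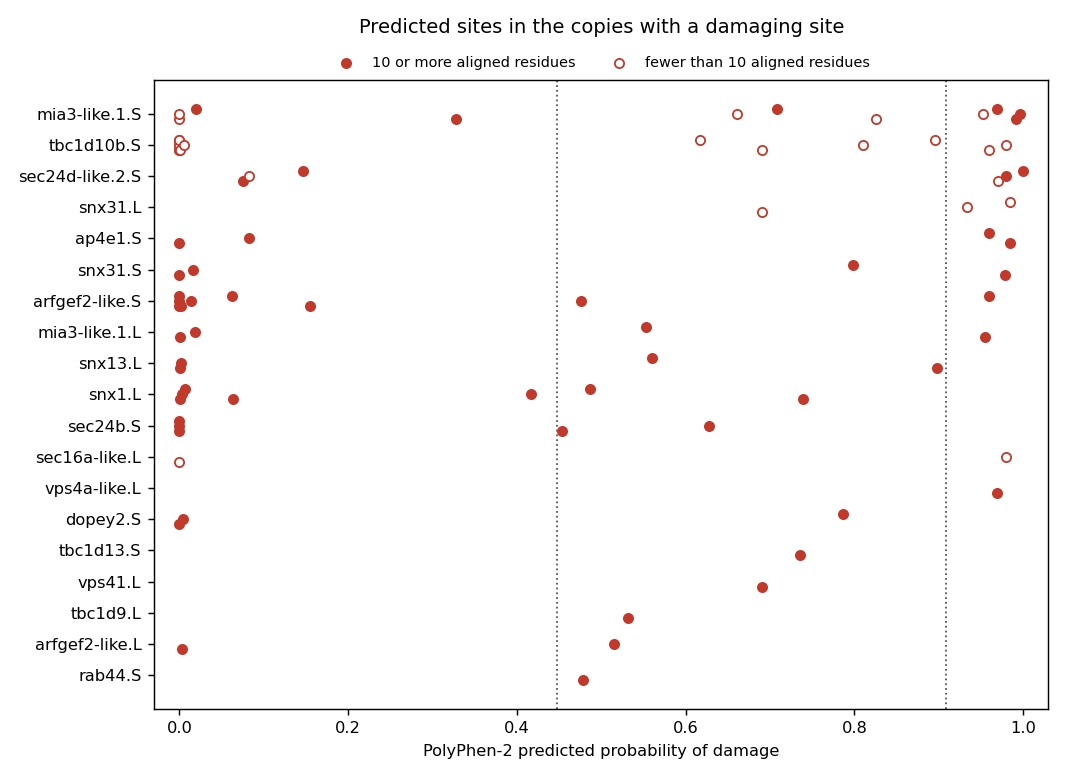
PolyPhen-2 predicted probability of damage (horizontal axis) for each predicted site in the 19 trafficking copies with a damaging site. Filled points rest on 10 or more aligned residues and open points on fewer, and dotted lines mark the lower limits of the possibly (0.447) and probably (0.909) damaging classes. Small vertical offsets within a row keep points apart. All points of tbc1d10b.S, snx31.L and sec16a-like.L are open.

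No single copy passed for its damaging share. By Fisher's exact test against all other genes, 0 of 7 trafficking copies with at least 5 predicted sites passed, as did 0% of the 1112 genes tested. An unadjusted p under 0.05 was found for 2 of the 7 copies and 3.15% of all genes tested. These were mia3-like.1.S, with 7 of 11 damaging (63.6%, 35.4 to 84.8, Fisher's exact adjusted p = 0.266), and tbc1d10b.S, with 6 of 14 (42.9%, 21.4 to 67.4, adjusted p = 1). The copies sec24d-like.2.S (3 of 6), sec24b.S (2 of 5), snx1.L (2 of 7), arfgef2-like.S (2 of 9) and trappc10.L (0 of 5) also had an adjusted p of 1.

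Whether a homologue carries the variant residue is part of what PolyPhen-2 reads, so the next shares are a description of its calls. In 79 of 106 benign trafficking sites (74.5%) the variant residue was carried by an aligned homologue, against 2 of 41 damaging ones (4.88%). The exceptions were A393V in snx1.L and P5S in tbc1d13.S. In all other genes these shares were 68.2% and 8.76%. Glycine was the reference residue in 7 and proline in 7 of the 41 damaging trafficking sites (17.1% each), against 7.98% and 8.69% of damaging sites in all other genes. Glycine was also more frequent among benign trafficking sites (9.43%, against 3.53% of benign sites in all other genes), and proline was not (2.83%, against 3.71%). Glycine and proline shape the protein backbone. A loss of either or a gain of proline made up 17 of the 41 damaging sites (41.5%, against 19.4% in all other genes) and 17.0% of the benign sites (against 11.2%). Of these damaging sites, G1004V in sec16a-like.L, G71D in sec24d-like.2.S and G169C and G304S in snx31.L rested on 3 or 4 aligned residues. P2053H and P2138H in mia3-like.1.S and P275T, G376V and P534L in tbc1d10b.S rested on 1 or 2. The other damaging sites of this kind rested on 41 or more. Of the damaging sites 14 (34.1%) rested on fewer than 10 aligned residues, against 31.5% in all other genes. All 38 trafficking sites without a prediction had 0 aligned residues, and 22 of the 38 lay in the pair mia3-like.1. In all other genes, 74.0% of the sites without a prediction had a recorded count of fewer than 10. Sites that lack a count, if any, stand among the rest. Sites without a prediction were 20.5% of the missense sites in trafficking copies. This share was 9.65% in other genes with a symbol and 16.9% in all other listed genes.

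Within pairs, L and S copies were set against each other as L minus S. The 35 listed L copies held 85 missense and 192 synonymous sites (30.7%), and the 33 listed S copies 100 and 175 (36.4%). In the other pairs with a symbol these fractions were 38.0% in L and 39.3% in S. Single copies weigh on the trafficking totals, with 16 missense and 8 synonymous sites in tbc1d10b.S and 22 and 19 in mia3-like.1.L. The pooled L and S fractions were not tested against each other. Of 16 trafficking pairs with both copies listed, L held more missense sites in 4, S in 6, and 6 were equal. Of 1005 other such pairs with a symbol, L held more in 298, S in 405, and 302 were equal. The pairs with the largest differences were tbc1d10b (3 in L and 16 in S), arfgef2-like (2 and 9), mia3-like.1 (22 and 15) and, with a single copy listed, sec24d-like.2 (0 and 7), snx1 (7 and 0) and sec23ip (6 and 0).

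**Figure D4:**
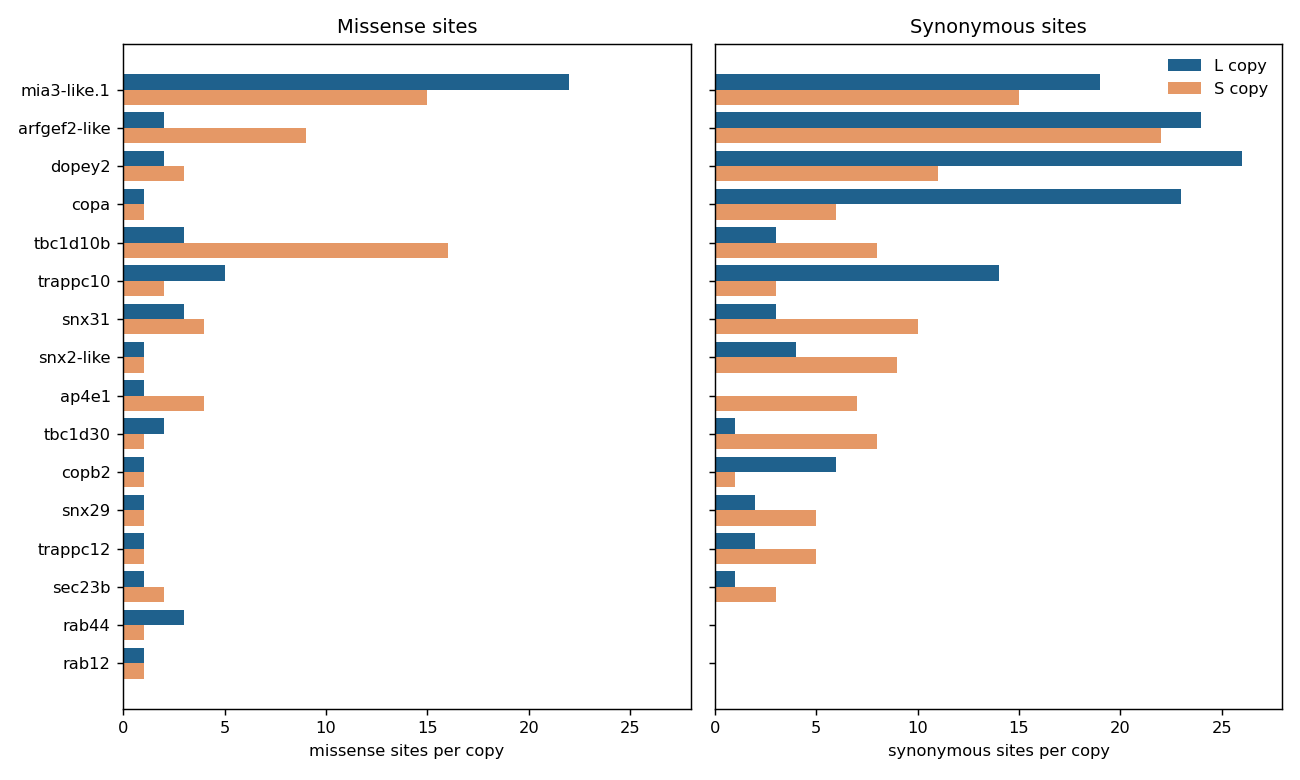
Missense sites (left) and synonymous sites (right) in the L copy (blue, upper bar) and the S copy (orange, lower bar) of the 16 trafficking pairs with both copies listed, ordered by total sites. For arfgef2-like the synonymous counts are close (24 in L and 22 in S) while the missense counts are 2 and 9.

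By Fisher's exact test of missense against synonymous sites between copies, 0 of 10 trafficking pairs with at least 10 sites together passed after adjustment over 769 pairs, and 0% of all pairs did. None of the 10 had an unadjusted p under 0.05, against 3.25% of all pairs tested. The smallest was that of arfgef2-like, with a missense fraction of 7.69% in L against 29% in S (difference -21.3 points, Fisher's exact p = 0.0510, adjusted p = 1). For dopey2 the difference was -14.3 points and for copa -10.1 (Fisher's exact adjusted p = 1 for both), so the low fractions of dopey2.L and copa.L were not shown to differ from those of their S copies. Damaging sites lay in both copies of 3 pairs, arfgef2-like (1 in L and 2 in S), mia3-like.1 (2 and 7) and snx31 (3 and 2), in S alone in 4 and in L alone in 0 of the 16. In the 1005 other such pairs with a symbol, 150 (14.9%) had damaging sites in both copies, 226 in S alone and 195 in L alone, and no test of these counts was made. Of 5 trafficking pairs tested for the damaging share between copies, 0 passed and 0 had an unadjusted p under 0.05 by Fisher's exact test, against 0% and 0.394% of 508 pairs.

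Other genes of the same pathway were taken from a list of clathrin and dynamin genes, SNAREs and their partners, COG and golgin tethers, ESCRT and WASH subunits, cargo receptors and further Rab and Arf regulators. The list matched 87 pairs, and 61 of their 174 copies (35.1%) were listed, with 113 missense and 184 synonymous sites (38.0%, 32.7 to 43.7). Of 23 copies with at least 5 sites, 0 passed the same Fisher's exact test in either direction, and 1 had an unadjusted p under 0.05. Damaging sites were 25 of 107 predicted (23.4%, 16.4 to 32.2), of which 3 were probably damaging.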

How the data were processed

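The authors deposited 3 tables for the whole series. The first gives counts of variant sites per gene, as deposited: missense sites, split by predicted class, and synonymous sites. The second gives, per protein change, the PolyPhen-2 class, the predicted probability of damage (a fraction per the file headers), profile scores per the file headers, the number of aligned residues (a count), the percent identity of homologues and the ratio of accessible surface in a mapped structure, both per the file headers. The third pairs gene names with L and S copies. Trimmomatic, TopHat, SAMtools and CASAVA (1.8.2) appear in the submitters' processing notes. The settings of the aligner, the variant caller, the filters and the build were not given in the sources used here, and read depth per site is unknown. The gene table had 11604 rows, of which 1 was not a gene and was left out. For each of the remaining 11603 genes the deposited class counts matched a recount from the site table.

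Fisher's exact tests (two-sided, scipy 1.17.1) used at least 5 sites per gene, 5 predicted sites for the damaging share and 10 sites per pair, with Benjamini-Hochberg adjustment over the whole table at 0.05. The functions were tested on simulated data. A site whose variant residue no aligned homologue carries is one with that field blank. Alternatives changed the site minimum, the genes compared, the damaging definition and the aligned residues required. The members, families, lists and tests were chosen with earlier results of these data known. Named copies were those that passed a test, the 8 with the smallest p in each direction, the 10 with the most damaging and the 6 with the most missense sites, the leading copy of each family, pairs with damaging sites in both copies and the 6 pairs that differ most. Others were named, after their values were seen, to describe their family.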

Additional observations from a re-analysis of the deposited data

How the results depend on the processing

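The number of trafficking copies that passed the Fisher's exact test with a lower missense fraction was 3. It was 2 with no minimum of sites and 2 after removal of the 1% of genes richest in sites, both times without arfgef2-like.L (Fisher's exact adjusted p = 0.0656 and 0.0555), and 4 with at least 10 sites, where copg1.S joined. It was 0 when only genes with a symbol were tested. That set is limited to the pair table, and its overall missense fraction is lower. Over all genes, 66 passed, against 28, 14, 86 and 4 under these settings in the same order. The genes tested numbered 5005 in the main setting and 11603, 4889, 1943 and 2012 in the others. The trafficking copies tested numbered 39 in the main setting and 68, 37, 19 and 39 in the others. No trafficking copy passed as higher under any of these settings. The counts for the damaging share and for L against S stayed at 0 under every alternative tried. The pooled missense fraction of 33.5% was 29.6% as a mean over copies with at least 5 sites (37.8% in other genes), and the damaging share of 27.9% was 12.2% when only probably damaging sites counted and 12.2% at a probability of at least 0.9 (6.93% and 7.33% in other genes). It was 23.1% with at least 10 aligned residues (27 of 117 sites, and 3260 of 17137 in other genes). The settings without mia3-like.1.S and tbc1d10b.S, and without both copies of mia3-like.1 (missense fraction 30.8%), were chosen after seeing the data. No paired analysis was possible because there is 1 library per group and the tables hold no column per library. Few sites per copy limit the tests: 29 of 68 listed copies had under 5.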
